A study of Sorghum bicolor with 5 samples.

Results

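The genes described here are the 200 sorghum genes that stood highest in one leaf library, that of the epi-F3 high plant Epi68_P3, relative to the other 4 libraries of the series. They were chosen by ratio. Counts were first divided by the library's total and scaled to CPM, counts per 1000000. Among the 14150 genes with at least 5 CPM in Epi68_P3, out of 35567 genes in all, the 200 with the largest ratio of their CPM in Epi68_P3 to their highest CPM in any other library were taken, after 0.1 CPM had been added to both. The excess in Epi68_P3 was therefore fixed by the choice and is a description, with no test.

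The libraries analysed here came from young leaves of 5 Tx430 sorghum plants, with 1 library per plant. The plants belonged to 2 epi-F3 lines, which descend from crosses of wild-type Tx430 with transgene-null progeny of MSH1-RNAi plants. *MSH1* is a nuclear gene for a protein of mitochondria and plastids, and no plant sequenced here carried the RNAi transgene by the study's scheme. Plants Epi68_P3 and Epi68_P1 represented the faster-growing line 68, epi-F3 high ("enhanced" in the labels), and plants Epi15_P1, Epi15_P2 and Epi15_P3 the slower-growing line 15, epi-F3 low ("non-enhanced"). With 1 line of each kind, the line and its growth rate cannot be told apart, and no library of unmodified Tx430 was analysed here. The greenhouse was kept at 28°C during the day and at 22°C during the night, the day lasted 14 h, and leaves were taken from plants 4 weeks old.

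In plants, cells that enter the division cycle switch on a block of genes for DNA replication. Origin recognition proteins and the MCM helicase are loaded on DNA before S phase, primase and polymerases then copy it, and replication-dependent histones are made to package the new strands. Mature leaf cells carry little of this RNA, while leaf bases and very young leaves carry much of it. A second block of genes, for pathogenesis-related (PR) proteins, is induced in leaves by pathogens and by salicylic acid: *PR1*, the glucanases, chitinases, thaumatin-like proteins and barwin proteins are secreted and act on microbial walls and membranes or mark the response. The genes were named by the Arabidopsis homologs that the study's supplementary table pairs with sorghum IDs. Of the 200 members, 144 (72%) have such a homolog, against 4.72% of all genes with at least 5 CPM in Epi68_P3. The study made that table from its comparison of the lines, to which these libraries belong, for genes it had called different. It describes as many epi-F3 high plants as epi-F3 low plants, whereas the epi-F3 high libraries here are Epi68_P1 and Epi68_P3 only. So neither the high share of named members nor a high share of members in a list drawn from the table is independent evidence.

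The libraries held 48372266 to 68979436 counts in genes, and 22302 to 24694 genes had at least 1 count. Green leaf markers were abundant everywhere: *PSAD2*, *PSAL* and *LHCB5*, for proteins of the photosystems, ranged between 561 and 3481 CPM over all libraries, although the *LHB1B1* homolog was at 0.186 to 13.4 CPM. Markers were matched only among the genes of the homolog table, so markers outside it were not examined. The single matched marker of growing tissue was the growth-regulating factor *GRF5*. It had 0 CPM in Epi68_P3 and Epi68_P1 and at most 0.116 CPM in the epi-F3 low plants, a level of 0 to 8 counts. Markers of protoderm and vascular precursors were present in all libraries. *ATHB-8* had 9.68 CPM in Epi68_P3 and 25.8 CPM in Epi68_P1, against 4.52, 2.94 and 2.46 CPM in Epi15_P1, Epi15_P2 and Epi15_P3, so that it was higher in both epi-F3 high plants and highest in Epi68_P1. *ATHB-14* ranged between 26.0 and 45.3 CPM, *PDF2* between 17.7 and 41.5 CPM, and the MADS-box factor homolog *AGL12* between 0.537 and 2.86 CPM. The part of these tissues in the members' levels was not tested. Counts in no gene made up 3.77% to 7.07% of assigned and unassigned reads and were most frequent in Epi68_P1. In whole leaves, fewer cells of a type and less RNA per cell cannot be told apart.

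Together the members took 1.02% of all gene counts in Epi68_P3 and 0.0472% in Epi68_P1, and 0.119%, 0.0477% and 0.145% in Epi15_P1, Epi15_P2 and Epi15_P3. The 95% Wilson interval of the Epi68_P3 share was 1.017% to 1.022%, and it covers counting error only. Median levels of the members were 17.3 CPM in Epi68_P3 and 0.941 CPM in Epi68_P1, and 2.08, 0.834 and 2.19 CPM in Epi15_P1, Epi15_P2 and Epi15_P3. Epi68_P1, the other plant of the same line, thus lay with Epi15_P2 at the low end. The members' share was 21.6-fold higher in Epi68_P3 than in Epi68_P1, a gap that the choice of members had set.

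**Figure D1:**
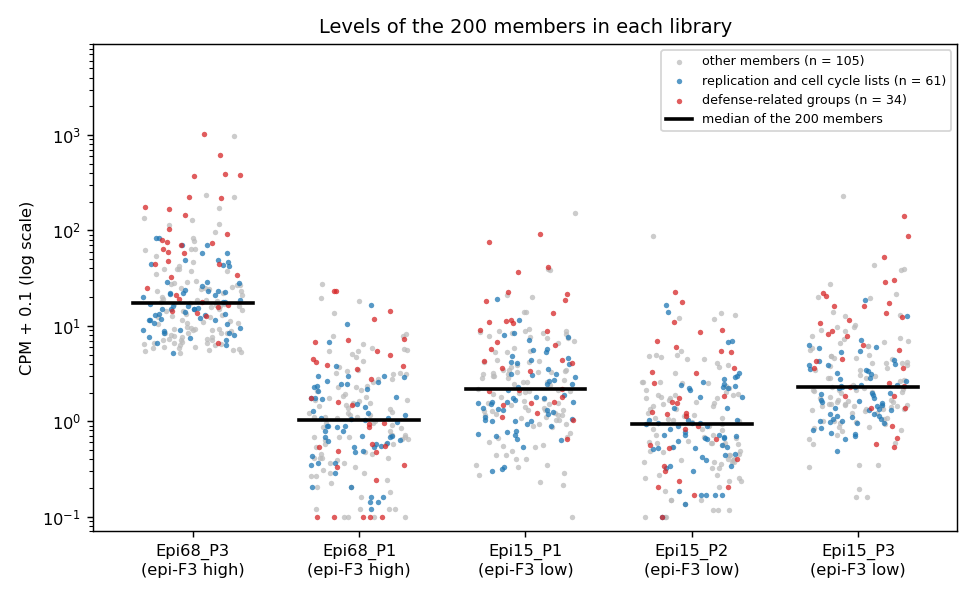
Level of each of the 200 members in each library, as CPM + 0.1 on a log scale, 1 point per gene, coloured by whether it is in the 6 replication and cell cycle lists (61), in the 6 defense-related groups (34) or in neither (105). Black bars are medians (17.3 CPM in Epi68_P3, on which the members were chosen, and 0.834 to 2.19 CPM elsewhere).

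Ratios ran between 3.11 and 102, with a median of 6.11, and were at least 10 for 50 members and at least 5 for 122. Levels outside Epi68_P3 were low: 138 members stayed under 5 CPM in all 4 other libraries and 25 stayed under 1 CPM. The edge of the selection was gradual. The last members inside were *LHT1*, a lysine and histidine transporter (ratio 3.12), the chromatin remodeller *DDM1* and SORBI_3001G184300 (3.11 each), and the first genes outside were the histone H2A gene *HTA2* (3.08) followed by SORBI_3006G054900 and SORBI_3008G146700.

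The name "proliferation genes" fitted only some of the members. The 6 lists of replication and cell cycle genes held 61 members (30.5%), and 6 groups of defense-related genes, put together after values had been seen, held 34 (17%). Another 49 had a homolog in none of these lists and 56 had no homolog in the table. Among the 50 members with the largest ratio, 20 were in the replication and cell cycle lists and 16 in the defense-related groups. The study listed, under each of its GO terms, genes it had called different between the lines, and not every gene of the term. Among the genes so listed, members made up 14 of 19 of DNA replication and 10 of 12 of the cell cycle. They made up 7 of 7 of DNA recombination and 9 of 58 of defense response. These shares were largely set in advance and do not measure coverage of a pathway. Of the 19 members above 100 CPM in Epi68_P3, 11 were defense-related and 0 were in the replication and cell cycle lists. The replication members had a median of 16 CPM in Epi68_P3, and the defense-related members 61.1 CPM.

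The largest ratio belonged to SORBI_3003G124750, which has no homolog in the table. It had 76.7 CPM in Epi68_P3 and 0.372 CPM in Epi68_P1, against 0.652, 0 and 0.558 CPM in Epi15_P1, Epi15_P2 and Epi15_P3. SORBI_3010G248500 had 10.6 CPM in Epi68_P3, no count in Epi68_P1, Epi15_P1 and Epi15_P2, and 0.062 CPM in Epi15_P3. It came close to presence in a single plant. SORBI_3003G087400 had 23.0 CPM in Epi68_P3 and 0.310 CPM in Epi68_P1, against 0.130, 0.102 and 0.062 CPM in the epi-F3 low plants, so that it was among the few members where Epi68_P1 was above all 3 of them. The other members of large ratio without a name were SORBI_3001G400800 (ratio 15.2) and SORBI_3003G174301 (14.6).

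Of 16 genes that prepare and open replication origins in the table, 12 were members, among them all 6 subunits of the MCM2-7 helicase, *MCM2* to *MCM7*. *MCM4* had 82.8 CPM in Epi68_P3 and 2.21 CPM in Epi68_P1, against 6.96, 2.47 and 6.15 CPM in Epi15_P1, Epi15_P2 and Epi15_P3. *MCM7* had 47.0 CPM in Epi68_P3 and 0.786 CPM in Epi68_P1, against 4.26, 1.68 and 4.14 CPM in the epi-F3 low plants. Both genes were low in Epi68_P1 and Epi15_P2 and more than 2-fold higher in the remaining epi-F3 low plants. *MCM2* (ratio 10.4), *MCM6* (9.11) and *MCM3* (8.80) followed. *MCM5* differed in that it had 70.7 CPM in Epi68_P3 and 16.4 CPM in Epi68_P1, against 18.8, 16.6 and 18.7 CPM in the epi-F3 low plants: outside Epi68_P3 its level was nearly flat, with a range of 0.18 on the log2 scale over the epi-F3 low plants, the narrowest of all 200 members. The set also held *SLD5* of the GINS complex (ratio 8.57), the MCM-binding protein *ETG1* (8.27), a kinase-like protein SORBI_3001G295400 (8.08), *ORC6* of the origin recognition complex (5.31), the licensing factor *CDT1A* (4.27) and *MCM9* (3.29).

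Of the 4 other genes of this list, *CDC45*, *CDC6* and *ORC5* had ratios of 10.8, 8.74 and 6.74 but reached only 2.54, 4.32 and 1.16 CPM in Epi68_P3, under the 5 CPM the choice required. The remaining gene, *MCM10*, had 12.2 CPM in Epi68_P3 and a ratio of 2.86.

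All 15 genes that the homolog table gave for the polymerase and replication fork list were members. *emb2411*, a replication helicase, had 15.3 CPM in Epi68_P3 and 0.496 CPM in Epi68_P1, against 0.681, 0.545 and 0.868 CPM in Epi15_P1, Epi15_P2 and Epi15_P3. Further members were the WD-40 repeat protein SORBI_3010G147700 (ratio 14.3), a primase large subunit (13.3), *RPA2A* and *RPA1B* of the protein that coats single-stranded DNA (12.2 and 10.3) and *POLA2* of polymerase alpha (11.5). *POL2A*, the catalytic subunit of polymerase epsilon, varied little outside Epi68_P3. It had 28.9 CPM in Epi68_P3 and 6.70 CPM in Epi68_P1, against 8.23, 6.91 and 7.07 CPM in the epi-F3 low plants.

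**Figure D2:**
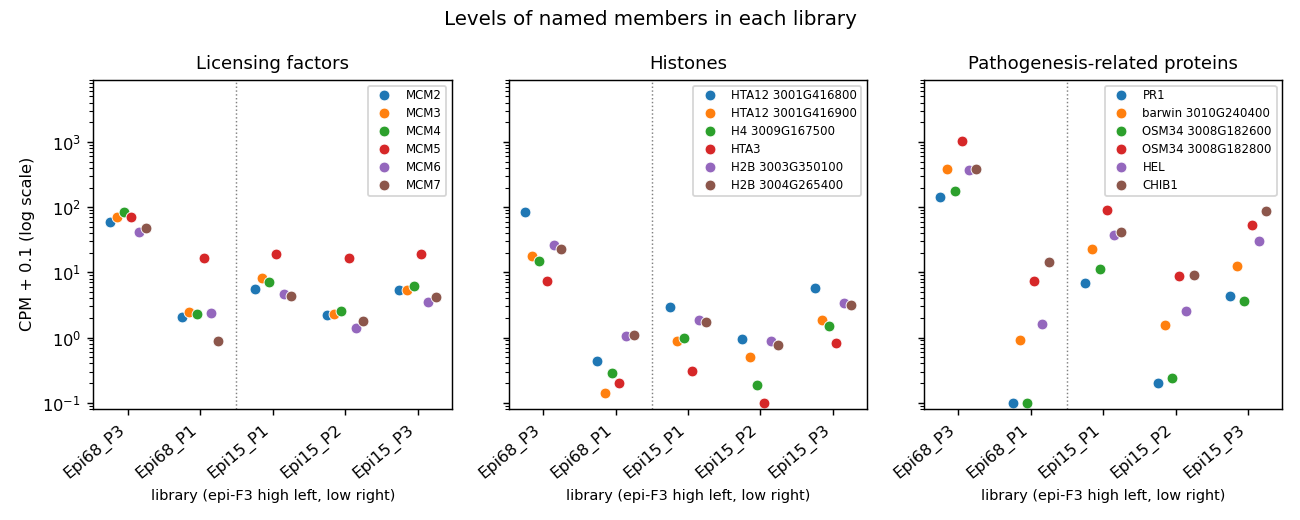
Levels of 6 licensing factors, 6 histone genes and 6 pathogenesis-related genes in each library, as CPM + 0.1 on a log scale, 1 point per gene and library, with epi-F3 high left of the dotted line. *MCM5* is nearly flat outside Epi68_P3, the histone genes are higher in Epi15_P3 than in Epi15_P1, and *PR1* and *OSM34* SORBI_3008G182600 have no count in Epi68_P1.

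Among the replication genes, histones varied most between the epi-F3 low plants. Of 14 histone genes in the table, 11 were members: 4 named *HTA12* and 1 named *HTA3*, which encode H2A proteins, 3 genes for H2B and 3 for H4. SORBI_3001G416800 (*HTA12*) had 83.4 CPM in Epi68_P3 and 0.331 CPM in Epi68_P1, against 2.83, 0.851 and 5.73 CPM in Epi15_P1, Epi15_P2 and Epi15_P3. The H4 gene SORBI_3009G167500 had 15 CPM in Epi68_P3 and 0.186 CPM in Epi68_P1, against 0.899, 0.0851 and 1.38 CPM in the epi-F3 low plants. In both, Epi15_P3 was highest and Epi15_P2 lowest of epi-F3 low. Histone genes have near-identical copies, and only uniquely mapped reads were counted, so levels of single copies are uncertain. The 3 histone genes outside the selection had high ratios too: 8.22 for the H3 gene *HTR1* and 7.48 for *H2AV*, both under 5 CPM in Epi68_P3, and 3.08 for *HTA2*.

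Genes that act on chromatin and on damaged DNA made up smaller sets. Of 9 genes for chromatin assembly and DNA methylation, 6 were members: *HMGB7* (ratio 14.5), both *CMT3* genes, which encode methyltransferases of CHG sites (11.3 and 6.90), *FAS2* and *FAS1* of chromatin assembly factor 1 (9.38 and 8.68) and *DDM1*. *DMT1*, the maintenance methyltransferase gene SORBI_3002G056000, was not a member, with 52.6 CPM in Epi68_P3 and 21.5 CPM in Epi68_P1, against 19.0, 24.5 and 19.3 CPM in the epi-F3 low plants. Of 14 DNA repair genes, 7 were members: *RAD5B* (10.8), *ATBARD1* (10.04), *RECQL4B* (8.91), *RECQL5* (8.59), *BRCA1* (8.44), *MSH7* (7.33) and a RAD3-like helicase (12.5). *MSH7* is a mismatch repair gene. Another mismatch repair gene, *MSH6*, was not a member. Its level of 27.8 CPM in Epi68_P3 and 25.4 CPM in Epi68_P1 lay under the 35.8, 35.5 and 32.8 CPM of Epi15_P1, Epi15_P2 and Epi15_P3.

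Of 16 genes for cyclins, kinesins and chromosome segregation, 10 were members. They included the A-type cyclin *CYCA3-1* (ratio 14.5), *FBL17*, an F-box protein that removes inhibitors of cyclin-dependent kinases in Arabidopsis (11.5), *PYM*, an inhibitor of the anaphase-promoting complex in Arabidopsis (11.4), a chromosome transmission fidelity protein (10.04), the retinoblastoma-related protein *RBR1* (9.21) and a kinetochore protein (6.78). For B-type cyclins, which act at mitosis, the gene matched in the homolog table was *CYCB1-2*. B-type cyclin genes outside that table were not examined. *CYCB1-2* had 0.0336 CPM in Epi68_P3 and 0.0207 CPM in Epi68_P1, against 0.101, 0.119 and 0.170 CPM in the epi-F3 low plants. *KIN7A*, a kinesin of cell plate formation, had 1.06 CPM in Epi68_P3 and 2.54 CPM in Epi68_P1, against 0.536, 0.783 and 0.821 CPM. *CYCB1-2* rested on very few counts in every library, and *KIN7A* in Epi68_P3 was above all 3 epi-F3 low plants and under Epi68_P1. Other genes of mitosis had larger ratios: 6.04 and 4.42 for the separase genes named *ESP*, 3.80 for *ATSMC3* and 3.33 for a condensin subunit. Among genes under 5 CPM in Epi68_P3, the ratio was 4.46 for *CAPH*, a further condensin subunit. The kinase gene *WEE1* of this list, also under 5 CPM, had a ratio of 7.05. Over the 6 lists, 23 genes were not members, and 18 of these had a ratio above 1. The lists hold genes the study had called different between the lines, so that share is no independent evidence.

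The highest levels belonged to secreted defense proteins. Of 16 genes in the group of pathogenesis-related proteins, 13 were members, and they summed to 3697 CPM in Epi68_P3 and 56.8 CPM in Epi68_P1, against 338, 50.5 and 394 CPM in Epi15_P1, Epi15_P2 and Epi15_P3. *PR1* had 144 CPM in Epi68_P3 and no count in Epi68_P1, against 6.70, 0.102 and 4.22 CPM in the epi-F3 low plants. The barwin-related gene SORBI_3010G240400 had 389 CPM in Epi68_P3 and 0.827 CPM in Epi68_P1, against 22.5, 1.46 and 12.4 CPM. Both genes were lowest in Epi68_P1 and Epi15_P2 and many times higher in Epi15_P1 and Epi15_P3. Not all genes of the group were high in Epi68_P3. The glucanase gene SORBI_3009G119200 had 41.0 CPM in Epi68_P3 and 31.7 CPM in Epi68_P1, against 44.0, 72.9 and 93.9 CPM in the epi-F3 low plants. *BG1*, a further glucanase gene, had 0.286 CPM in Epi68_P3 and 0.165 CPM in Epi68_P1, against 0.870, 0.579 and 1.12 CPM. The thaumatin family gene SORBI_3001G267600 had a ratio of 5.24 but only 1.71 CPM in Epi68_P3.

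Thaumatin-like genes named *OSM34* gave the extremes. SORBI_3008G182800 had 1020.1 CPM in Epi68_P3, the highest level of any member, and 7.17 CPM in Epi68_P1, against 90.7, 8.58 and 53.1 CPM in Epi15_P1, Epi15_P2 and Epi15_P3. Its neighbour SORBI_3008G182900 had 624 CPM in Epi68_P3 and 23.3 CPM in Epi68_P1, against 76.4, 22.7 and 142 CPM. Another neighbour, SORBI_3008G182600, had 178 CPM in Epi68_P3 and no count in Epi68_P1, against 11.3, 0.136 and 3.53 CPM. These neighbours share an Arabidopsis homolog. Only uniquely mapped reads were counted, so their levels are uncertain as far as they share sequence, which was not measured. *HEL*, a hevein-like protein, had a ratio of 10.1, the chitinase *CHI-B* one of 11.03, and *OSM34* SORBI_3001G145700 one of 10.3.

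The second highest level was that of SORBI_3003G421700, which has no homolog in the table and lies near the glucanase gene *BGL2* (SORBI_3003G422200, ratio 7.12). It had 981 CPM in Epi68_P3 and 27.7 CPM in Epi68_P1, against 154, 87.6 and 227 CPM in the epi-F3 low plants.

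Other defense-related members were fewer and more varied. Of 8 O-methyltransferase genes, 4 were members. SORBI_3001G354400 had 33.9 CPM in Epi68_P3 and no count in Epi68_P1, against 1.38, 0.306 and 0.573 CPM in Epi15_P1, Epi15_P2 and Epi15_P3. *OMT1* reached 227 CPM in Epi68_P3 (ratio 10.9), and SORBI_3010G231000 and SORBI_3010G230800 had ratios of 14.1 and 13.2. SORBI_3007G099400 of the same group went the other way, with 0.168 CPM in Epi68_P3 and 3.89 CPM in Epi68_P1, against 0.116, 0.460 and 0.403 CPM. Of 10 genes of the WRKY family, transcription factors of which several regulate salicylic acid responses in Arabidopsis, 4 were members. They were *WRKY51* (15.1), *WRKY40* (10.1), *WRKY70* (6.16) and *WRKY18* (5.64). Among the others, *WRKY46*, a further *WRKY70* gene and *WRKY54* had ratios of 15.2, 7.42 and 5.59 but were under 5 CPM in Epi68_P3. Ratios were 1.10 for *WRKY67*, 0.682 for *WRKY2* and 0.641 for *WRKY38*. Genes whose listed homolog is the abscisic acid receptor *PYL6* gave 2 members of 3 (12.3 and 9.11). Their place among the defense-related groups was a choice, and their function in sorghum was not tested. Of 8 peroxidase genes, 4 were members: *PER52* SORBI_3005G011500 (15.5), a further *PER52* (6.36), *PER59* (4.35) and *PER12* (3.88). Among the others, ratios were 3.05 for *PER3*, 0.497 for *PER39*, 0.483 for *PER17* and 0.437 for *PER52* SORBI_3004G105800.

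Receptor kinases and resistance proteins were mostly outside the selection, with 7 members of 60 genes. *SERK1*, a receptor kinase, had 58.4 CPM in Epi68_P3 and 0.393 CPM in Epi68_P1, against 3.29, 0.460 and 3.52 CPM in the epi-F3 low plants. The others were *SD18* (ratio 6.17), *WAK5* (5.51), *CRK25* (4.28), both *RPPL1* genes (4.05 and 3.48) and SORBI_3001G074200 (3.21). Members of large ratio in none of the lists included the beta-glucosidase *BGLU44* (22.6), the cytochrome P450 *CYP71A25* (12.9) and a RING finger protein, SORBI_3010G023600 (12.8).

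Some members lay near each other. In all, 16 runs of 2 to 5 members, at most 5 annotated loci apart by their numbers, held 40 members (20%), and how often other expressed genes form such runs was not measured. The longest, SORBI_3001G400700 to SORBI_3001G401300 on chromosome 1, held 5 members including both *PYL6* genes. SORBI_3008G182600 to SORBI_3008G183300 on chromosome 8 held 4 members, 3 of them *OSM34*. Others paired the *HTA12* genes SORBI_3001G416800 and SORBI_3001G416900, *WRKY18* with *WRKY40*, *BGLU44* with the barwin-related gene, and *CYP71A25* with O-methyltransferases on chromosome 10. By chromosome, members were spread much as expressed genes were. Chromosome 1 held 38 members (19%, against 18.6% of genes with at least 5 CPM in Epi68_P3), and the widest gaps were 7% against 4.72% on chromosome 5 and 8% against 12.1% on chromosome 4.

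**Figure D3:**
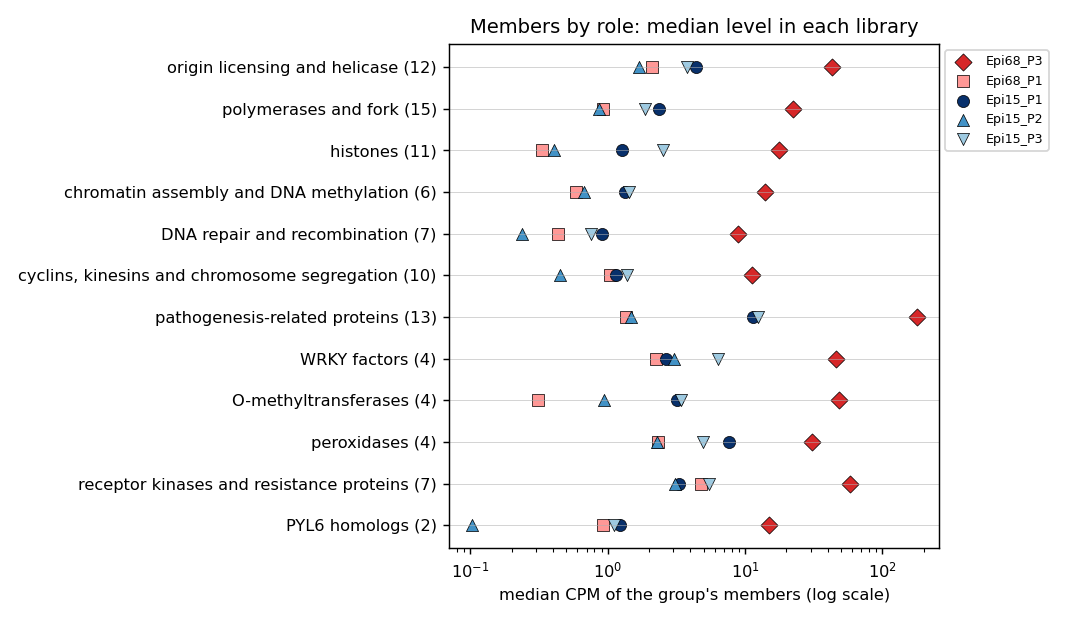
Median CPM of the members of each role group in each library, on a log scale; the number of members stands in parentheses, red marks are epi-F3 high and blue marks epi-F3 low. In most groups Epi68_P1 and Epi15_P2 lie low and Epi15_P1 and Epi15_P3 higher; the choice of members fixed the place of Epi68_P3.

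Outside Epi68_P3, the question was whether the members moved together. The choice used the highest of the other 4 libraries and not which library that was. Among the epi-F3 low plants, 174 of the 200 members (87%) were lowest in Epi15_P2, against 39.7% of the 23098 genes that reached 10 counts in total and 33.9% of the genes with at least 5 CPM in Epi68_P3. Epi15_P3 was highest for 113 members (56.5%, against 34.5% of the 23098 genes). The order Epi15_P3, Epi15_P1, Epi15_P2 held for 104 members (52%, against 21.4%), and the order Epi15_P1, Epi15_P3, Epi15_P2 for 70 (35%, against 18.3%). Members share their library and 20% lie in runs of neighbours, so these are counts of genes in 3 plants and not of independent events. Without the members in runs, 86.3% of the other 160 were lowest in Epi15_P2.

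The size of these differences varied by role. The median member spanned 1.71 on the log2(CPM + 0.1) scale over the epi-F3 low plants, against 0.40 for genes with at least 5 CPM in Epi68_P3, most of which had higher levels in these plants than the members. For 154 members (77%, against 11.1%) the highest plant was at least 2-fold above the lowest. Pathogenesis-related members spanned 3.39 at the median, and all 13 spanned over 2 on the log2 scale. Histone members spanned 2.62, licensing members 1.31 and polymerase and fork members 0.72.

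The order of Epi15_P1 and Epi15_P3 was also counted by role. Of the genes with at least 5 CPM in Epi68_P3, 63.1% were higher in Epi15_P1 and 36.9% in Epi15_P3, with a median difference of -0.12 for Epi15_P3 minus Epi15_P1 on the log2 scale. All 11 histone members were higher in Epi15_P3 than in Epi15_P1, by 0.87 on the log2 scale at the median. For 11 of the 12 licensing members, *MCM2* to *MCM7* among them, Epi15_P1 was the higher, with a median difference of -0.22. Polymerase and fork members were higher in Epi15_P1 in 10 of 15, with a median of -0.30, a share close to that of the other genes. Pathogenesis-related members were split, 7 higher in Epi15_P3 and 6 higher in Epi15_P1. These counts were made after the values had been seen and were not tested.

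**Figure D4:**
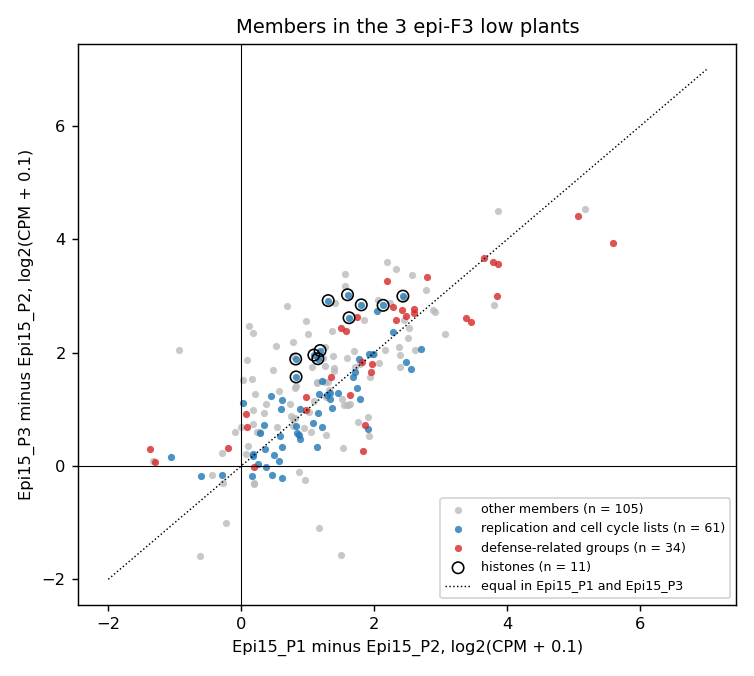
Each member's difference of Epi15_P1 (x axis) and of Epi15_P3 (y axis) from Epi15_P2, in log2(CPM + 0.1) units, 1 point per gene, with the 11 histone members circled. Most points lie right of and above 0, since Epi15_P2 was lowest for 174 members, and all 11 histones lie above the dotted line where Epi15_P1 and Epi15_P3 are equal.

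Some members broke the common order, and those named here were picked after their values were seen. *LOX1*, a lipoxygenase, had 24.9 CPM in Epi68_P3 and 4.20 CPM in Epi68_P1, against 7.29, 2.50 and 0.775 CPM in Epi15_P1, Epi15_P2 and Epi15_P3, so that Epi15_P3 was lowest. *AATP1* SORBI_3008G191300 had 83.1 CPM in Epi68_P3 and 5.37 CPM in Epi68_P1, against 2.48, 4.82 and 20.2 CPM, with Epi15_P1 lowest. *DMR6*, which in Arabidopsis breaks down salicylic acid, had 42.0 CPM in Epi68_P3 and 1.55 CPM in Epi68_P1, against 1.90, 1.67 and 8.88 CPM, and stood out in Epi15_P3 alone among epi-F3 low. *ATIM*, a timeless family protein of the fork list, was flat, with 48.8 CPM in Epi68_P3 and 10.5 CPM in Epi68_P1, against 11.4, 13.9 and 12.5 CPM.

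The comparison of lines asks which genes differ between the faster and the slower line. In edgeR's quasi-likelihood test of both epi-F3 high plants against the 3 epi-F3 low plants, 1 of 23098 genes passed a Benjamini-Hochberg adjusted p of 0.1 and an absolute log2 fold change of 0.5 (0.00433%), and 0 of the 200 members did. All 200 members had been tested, and their lowest adjusted p was 0.999. The study, which describes more epi-F3 high plants than were available here, reports many more genes at the same thresholds. At an unadjusted p under 0.05, 78 members (39%) were higher in epi-F3 high, against 2.26% of all genes, and 0 were lower. Since Epi68_P3 chose the members, that share is no result about them. DESeq2 and edgeR's exact test each called 4 members, all higher, while they called 0.186% and 0.173% of all genes higher. The choice of members bears on these counts too. The members' median log2 fold change of 2.22 rested on Epi68_P3: without that library it was -0.999. *MCM4*, for example, had a log2 fold change of 2.88 ± 1.09 (SE, edgeR, adjusted p = 0.999).

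The comparison of Epi68_P1 with epi-F3 low leaves out the library that chose the members. Epi68_P1 is a single plant, and the spread within its line was not measured by this fit. Here the members leaned the other way. Of the 199 members with enough counts, 170 had a negative and 29 a positive fitted log2 fold change, with a median of -0.999 against -0.03 for the 22531 genes tested. At least 2-fold lower fitted levels were found for 98 members (49.2%, against 14.7% of genes tested), and at least 2-fold higher ones for 6 (3.02%, against 6.69%). The remaining member, SORBI_3010G248500, had too few counts to be fitted. The choice of members capped their highest level over these 4 libraries, so the comparison is not fully independent of it. Genes raised in both epi-F3 high plants were less likely to be members. The small shares of members with a higher level in Epi68_P1, here and below, were set in part by this.

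No member was called in this fit, in which 27 genes (0.12%) were. At an unadjusted p under 0.05, 35 members (17.6%) were lower in Epi68_P1, against 3.91% of all genes, and 1 member was higher, against 3.61%. DESeq2 called 15 members, all lower, and it called 0.834% of all genes lower. The exact test called 4 members, all lower, and 0.275% of all genes lower. The level in Epi68_P1 lay under all 3 epi-F3 low plants for 82 members (41%, against 23.7% of genes) and above all 3 for 10 members (5%, against 32.5%). Compared with Epi15_P2 alone the median member differed by 0.08 on the log2 scale, so that Epi68_P1 stood apart from Epi15_P1 and Epi15_P3 and not from every plant of the other line. Counting error was considerable: the median member had 45.5 counts in Epi68_P1 and 32 members had fewer than 10.

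**Figure D5:**
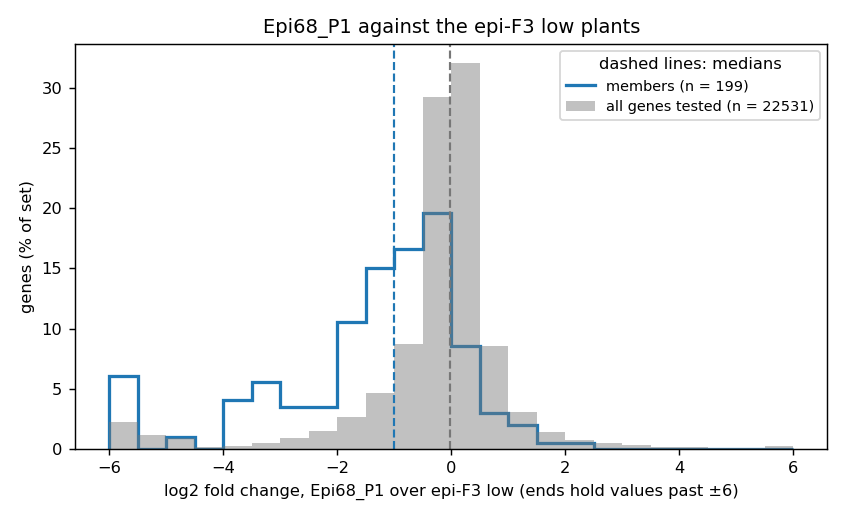
Distribution of log2 fold changes of Epi68_P1 over the 3 epi-F3 low plants for 199 members (blue line) and all 22531 genes tested (grey), as a percentage of each set in bins of 0.5 log2 units; dashed lines are medians (-0.999 for members, -0.03 for all genes) and the end bins hold values past the axis.

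The members with the lowest p were SORBI_3003G421700, *PER52* SORBI_3005G011500 and SORBI_3005G126200, all lower in Epi68_P1. SORBI_3003G421700 had a log2 fold change of -2.55 ± 0.53 (SE, edgeR, adjusted p = 0.328). *PER52* had no count in Epi68_P1 and 0.928, 0.800 and 0.790 CPM in Epi15_P1, Epi15_P2 and Epi15_P3, at least 13.5-fold lower against a floor of 3 counts in the Epi68_P1 library (edgeR, adjusted p = 0.333). SORBI_3005G126200, the neighbour of *SERK1*, had 0.103 CPM in Epi68_P1, against 8.19, 1.5 and 6.79 CPM in the epi-F3 low plants (edgeR, adjusted p = 0.354). None of these differences passed the adjusted threshold. In the opposite direction the lowest p belonged to a dehydrodolichyl diphosphate synthase, SORBI_3002G298400, with 1.12 CPM in Epi68_P1, against 0.232, 0.289 and 0.0930 CPM (edgeR, adjusted p = 0.663). It was followed by SORBI_3004G112300 and *CYP704A2*, with log2 fold changes of 1.18 ± 0.60 and 1.31 ± 0.73 (SE, edgeR, adjusted p = 0.677 and 0.688).

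Of the members, 9 had no count in Epi68_P1, *PER52* among them, and 5 of the 9 were in the defense-related groups. Members without a count were also found in Epi15_P2 (5) and Epi15_P1 (1). Epi68_P1 was the library with the fewest counts in genes, 48372266, and the share of all genes without a count was not compared. Against the same floor of 3 counts, *OSM34* SORBI_3008G182600 was at least 80.6-fold, *PR1* at least 59.2-fold, *WRKY51* at least 13.5-fold and the O-methyltransferase SORBI_3001G354400 at least 12.1-fold lower in Epi68_P1 than the mean of the epi-F3 low plants. These bounds rest largely on Epi15_P1 and Epi15_P3, since *OSM34* and *PR1* were at 0.136 and 0.102 CPM in Epi15_P2. With the genes without a count set at their bounds, the members' median stayed at -0.999.

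Over all 22531 genes tested, the median log2 fold change of Epi68_P1 against epi-F3 low was -0.03. By list, it was -2.63 for the 16 pathogenesis-related genes and -1.62 for the 14 histone genes. These were the lists with the lowest medians in Epi68_P1 among those of replication and PR genes. The 15 licensing genes tested had a median of -0.49, and the 15 polymerase and fork genes one of -0.68. Cyclin, kinesin and segregation genes, 16 in all, had a median of -0.18. Some lists did not lean this way. The medians were 0.11 for the 60 receptor kinase and resistance genes, 0.08 for DNA repair genes and 0.50 for the 3 *PYL6* homologs. Medians were -0.77 for peroxidases, -0.55 for WRKY factors, -0.40 for the 8 O-methyltransferase genes and -0.39 for chromatin assembly and DNA methylation. None of the 188 list genes tested was called in either direction. The lists were drawn up with results of these libraries known, so these medians describe them and are no independent evidence of a direction.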

How the data were processed

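The deposited files hold raw counts of reads per gene, 1 file per plant. The authors trimmed paired-end DNBseq reads of TruSeq v2 libraries with TrimGalore! 0.4.1, aligned them with STAR 2.7.3a to the NCBIv3 genome and counted uniquely mapped reads; the strand setting is not given in the sources used here. The 5 summary lines entered neither library sizes nor tests, with no-feature reads at 3.77% to 7.07% and ambiguous reads at 0.445% to 0.557% of those listed. The authors used edgeR 3.26.8.

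Here, genes that reached 10 counts in total in the libraries fitted were tested with edgeR 4.0.16 in R 4.3.3 (TMM, quasi-likelihood, adjusted p at most 0.1, absolute log2 fold change at least 0.5; SE from the F statistic). Tested on simulated data of 23098 genes for epi-F3 high against epi-F3 low, the fit called 64 of 100 genes with a 4-fold change and 94 of 100 with a 16-fold change, and made 15 false calls. For Epi68_P1 against epi-F3 low, with 22531 genes, it called 80 and 95 and made 36 false calls. Genes were drawn independently in the simulation, and the changed genes only from those within a set range of mean level. The change was given to every epi-F3 high library, whereas the members were high in Epi68_P3 alone. The shares called therefore do not give the power for the members, of which many had low levels outside Epi68_P3.

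The 200 members and all lists were chosen with earlier results of these data known. Genes named are the 25 named members of largest ratio, up to 6 per list with *MCM2* to *MCM7*, 3 on each side of the edge, up to 3 of lowest p per direction in Epi68_P1 against epi-F3 low, the 3 of highest CPM and the 5 without a name of largest ratio; other named genes were chosen after their values were seen. Chromosomes were read from locus IDs. Promoter motifs and sequences were not analysed here. Nothing in the labels says how the plants of a line are related beyond being biological replicates. Alternatives were RLE size factors, DESeq2 1.42.0, edgeR's exact test, other filters, 2 forms of a replicate block, leaving out each library and other forms of the rule for members.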

Additional observations from a re-analysis of the deposited data

How the results depend on the processing

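The limits are these. Epi68_P3 is 1 plant, and which of its features belong to line 68, to that plant or to that leaf cannot be told apart here. Many members had few counts outside Epi68_P3, and homologs name only 144 of them.

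Under another form of the rule, 195 (TMM CPM), 189 (pseudocount of 1 CPM) and 180 (mean of the other 4 libraries as denominator) of the 200 members were kept, 127 with a minimum of 1 CPM in Epi68_P3 and, by construction, 100 with a list of 100. The median ratio was 3.10 over 400 genes, again by construction. The share lowest in Epi68_P1 was 38% to 50.5% and the share lowest in Epi15_P2 among epi-F3 low 78.3% to 93% under these forms; the checks of Epi15_P2, and those without runs of neighbours, were added after seeing the data.

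For epi-F3 high against epi-F3 low, 1 gene was called and 68 with DESeq2, 51 with the exact test, 12 without a filter and 0 with filterByExpr. Members called were 0, against 4 with DESeq2 and 4 with the exact test. With a replicate block, 70 genes and 1 member were called by plant number and 7 genes and 0 members by replicate type number, and the members' median log2 fold change was 0.82 and 1.54. Deviations from the line means correlated at 0.0108 and 0.362 for plants of the same number, which does not show that the numbers pair the plants. Leaving out 1 library gave 0 to 80 genes called, 0 to 60 members called and a median log2 fold change of -0.999 to 3.15; the 80 and 60 came without Epi68_P1, which leaves the library that chose the members, and the reversed value of -0.999 came without Epi68_P3.

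For Epi68_P1 against epi-F3 low, 27 genes were called and 347 with DESeq2, 230 with the exact test and 85 without a filter. Members called were 15, 4 and 2 under these, against 0. Leaving out 1 epi-F3 low plant gave 28 to 185 genes called, 1 to 5 members called, all lower, and a median log2 fold change of -1.29 to -0.59. The causes were not tested. The replicate block could not be fitted to this comparison, which has 1 epi-F3 high plant.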
